A study of Danio rerio with 3 samples.

Results

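The genes described are the zebrafish alpha, beta and gamma crystallins and a few membrane and filament genes of the lens. These few are the water channel genes mipa and mipb, the fibre membrane genes lim2.3 and lim2.4, and the beaded filament gene bfsp2. All genes were chosen by gene symbol in the array's probe annotation. The rule took every symbol that begins with crya, cryba, crybb or cryg and the named membrane and filament genes, and left out the cryptochromes. The choice gave 39 of 15554 genes, measured by 53 probes: 3 alpha, 10 beta and 21 gamma crystallins, and 5 membrane and filament genes. A RefSeq gene table of the assembly GRCz12tu lists 64 genes that match the same symbols, so that 25 of them have no named probe here. Most of these 25 are gamma M crystallins, of which 15 of 35 were measured; lim2.1 and bfsp1 are also among them.

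RNA came from whole wild-type zebrafish embryos of strain Ab. The treated group was exposed to 40 µM LY-364947, an inhibitor of the kinase TGF-β receptor 1, from 8 hours post fertilisation until collection at 48 hours; the control was untreated embryos of that age. There were 3 treated replicates of 10 to 15 embryos, each on its own 2-colour array against 1 pool of 3 untreated replicates, and the dyes were swapped for replicate 2. The deposited values are log ratios without intensities, so the number of arrays limits the precision and the signal behind a ratio is unknown: a gene near 0 cannot be told from a probe without signal.

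Over all probes as deposited, replicate 2 ran against replicates 1 and 3 (r = -0.742 and r = -0.647), and its sign was turned. Which channel is the numerator is not given in the sources used here. By the sample titles, a positive ratio is higher in LY-364947 embryos; if Cy5 stands over Cy3, the untreated embryos are the higher ones. Genes are therefore placed on the positive or the negative side, with no direction of the drug's effect. The log base is not given either. Base 2 was taken as likely, since the largest ratio in the table would be 9524-fold on base 10, against 15.8-fold on base 2; every fold below rests on this reading.

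Crystallins fill the cytoplasm of lens fibre cells and give the lens its refractive power. Alpha crystallins are small heat shock proteins that act as chaperones, whereas beta and gamma crystallins share a fold built from Greek key motifs, the beta proteins forming oligomers and the gamma proteins staying monomers. Fish carry a large family of methionine-rich gamma M crystallins, suited to the dense, hard lens needed under water. Fibre cells make these proteins as they elongate and before they lose their nuclei, and their membranes carry the water channel Mip (aquaporin 0) and the small tetraspan protein Lim2.

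On the positive side, 25 of the 39 genes had a limma adjusted p under 0.05, and on the negative side 0 had. At an unadjusted limma p of 0.05 the counts were 26 and 1 (crygm7), and no share over all genes was computed there. The background over all 15554 genes at the adjusted threshold was 9.95% called positive and 9.44% called negative, or 19.4% in all. Of the 39 genes, 29 had a ratio above 0 on each of the 3 arrays, a pattern that 25.9% of all genes had. The 25 that passed are all among these 29, and their calls rest on the same ratios. The median of the mean ratios was 0.62 over the 39 genes and 0.00 over all genes. A mean ratio of 1 or more, at least 2-fold on base 2, was reached by 11 of the 39, all of which passed; 0.508% of all genes passed with such a mean. Among the 100 most positive genes of the array, 12 were crystallins. RNA was from whole embryos, so a difference in the number of lens cells and a difference in RNA per lens cell cannot be told apart, and the members are not replicates of each other, since many gamma M genes are near copies. The untreated pool is in every ratio, and its own error is in none of the SDs or p-values.

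The other 14 genes had mean ratios between -0.15 and 0.17. Their 95% intervals from limma reached at most 0.33 upward and -0.30 downward. Of these 14, 4 had all ratios above 0, 2 had all below 0 and 8 had both signs. The family thus fell into genes with a clear positive ratio and genes near 0, and 3 of the 25 that passed lay between, with means under 0.5.

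**Figure D1:**
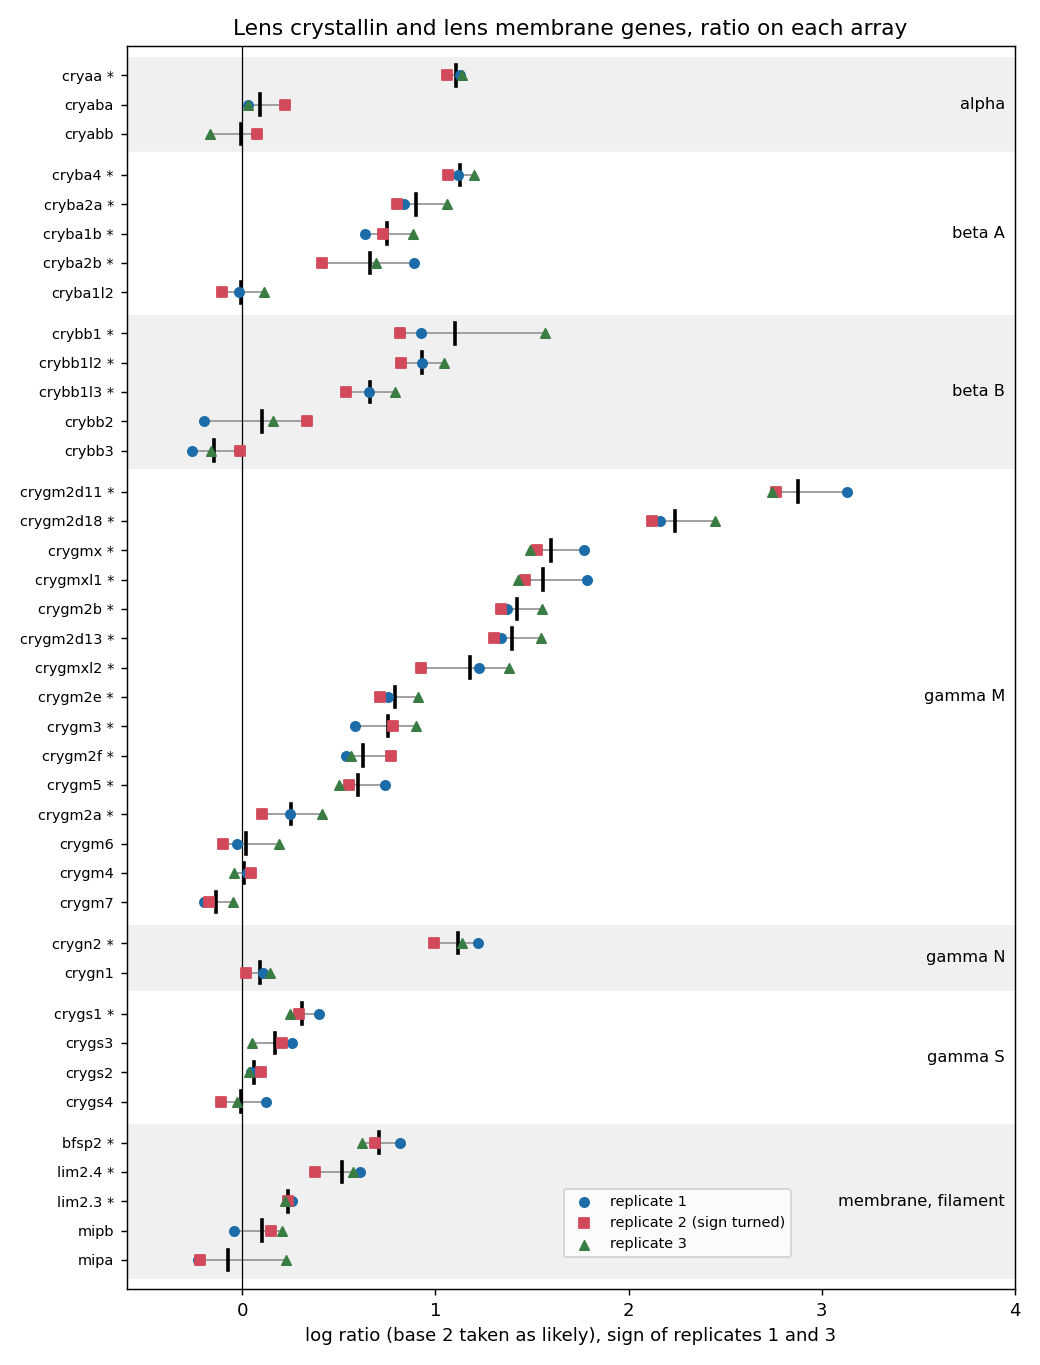
Log ratio of each of the 39 genes (rows, by class) on each of the 3 arrays, with the mean as a black bar and an asterisk where the gene passed an adjusted p of 0.05 by limma. The gamma M genes span from -0.14 to 2.88, while each class also holds genes near 0.

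The alpha crystallins split into 1 gene on the positive side and 2 near 0. The chaperone gene cryaa had ratios of 1.12, 1.06 and 1.14 on the arrays of replicates 1, 2 and 3. These lie close together, with a mean of 1.11 ± 0.04 (SD, n = 3), a 2.15-fold difference (limma adjusted p = 6.49e-05). Its alpha B relative cryaba had 0.03, 0.22 and 0.03, a mean of 0.09 ± 0.11 that did not pass (limma adjusted p = 0.355). The duplicate cryabb had 0.07, 0.08 and -0.17, a mean of -0.01 ± 0.14 (limma adjusted p = 0.958). In each array cryaa lay above cryaba, by 1.01 ± 0.16 on average. The 1 probe of cryaba lay near 0 and may be without signal. In mammals, alpha B crystallin is also made in muscle and heart, whereas alpha A is largely a lens protein. Where the zebrafish genes are expressed was not tested here.

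Among the beta crystallins, oligomeric structural proteins of the fibre cells, 7 of 10 passed on the positive side, against 9.95% of all genes. The highest was cryba4, with ratios of 1.12, 1.07 and 1.20 and a mean of 1.13 ± 0.07, a 2.19-fold difference (limma adjusted p = 7.27e-05). Next was crybb1 with 0.92, 0.81 and 1.57, a 2.15-fold mean difference with an SD of 0.41 log2 units (limma adjusted p = 0.00259). Replicate 3 stood apart for crybb1, which had the largest SD of the 39 genes; the median SD was 0.13.

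The beta B gene crybb1l2 had 0.93, 0.82 and 1.04, with a mean of 0.93 ± 0.11 (limma adjusted p = 0.000233). The acidic beta A gene cryba2a had 0.84, 0.80 and 1.06, with a mean of 0.90 ± 0.14 (limma adjusted p = 0.000357). The beta A gene cryba1b followed with 0.63, 0.73 and 0.88, a mean of 0.75 ± 0.13 (limma adjusted p = 0.000598). All 3 genes had their highest ratio on replicate 3. In contrast, cryba2b, the duplicate of cryba2a, was highest on replicate 1, with 0.89, 0.41 and 0.69 and a mean of 0.66 ± 0.24 (limma adjusted p = 0.00361). The 2 copies differed by 0.24 ± 0.25 (cryba2a minus cryba2b), with cryba2a the higher in 2 of 3 arrays, so they were not separated beyond the spread of the arrays. A further beta B gene, crybb1l3, had a mean of 0.66 ± 0.13 (limma adjusted p = 0.000957).

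The 3 remaining beta genes did not pass. cryba1l2 had -0.02, -0.11 and 0.11 (mean 0.00 ± 0.11, limma adjusted p = 0.967). crybb2 had -0.20, 0.33 and 0.16 (mean 0.10 ± 0.27, limma adjusted p = 0.549), and crybb3 averaged -0.15 ± 0.13 (limma adjusted p = 0.164). All 3 of the crybb3 ratios were below 0, and those of the other 2 had both signs. The acidic beta A genes passed in 4 of 5 cases and the basic beta B genes in 3 of 5. Their class means were 0.69 ± 0.10 and 0.53 ± 0.14 (SD over 3 arrays). Of all genes, 9.95% passed on the positive side.

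Some beta crystallin genes lie in pairs of a beta A and a beta B gene. In the GRCz12tu gene order, crybb1 and cryba4 are neighbours on chromosome 10 with no other protein-coding gene between them, and cryba1l2 and crybb1l2 are neighbours on chromosome 1. The pair on chromosome 10 was not separated beyond the spread of the arrays. There, crybb1 minus cryba4 was -0.20, -0.25 and 0.36 on replicates 1, 2 and 3. The signs differed between arrays, and the mean was -0.03 ± 0.34. The pair on chromosome 1 was separated: crybb1l2 minus cryba1l2 was 0.95, 0.93 and 0.93. This difference of 0.94 ± 0.01 was nearly the same on every array. The 1 probe of cryba1l2 lay near 0, and such a gene cannot be told from a probe without signal.

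The gamma M crystallins held the largest ratios of the 39 genes, and 12 of 15 passed on the positive side, against 9.95% of all genes. The gene crygm2d11 had ratios of 3.13, 2.76 and 2.74. Its mean of 2.88 ± 0.22, a 7.35-fold difference, was the second most positive of all 15554 genes (limma adjusted p = 1.35e-05). The gene crygm2d18 had 2.16, 2.12 and 2.45, a mean of 2.24 ± 0.18 or 4.73-fold (limma adjusted p = 2.05e-05). All ratios of these 2 genes exceeded every ratio of the other 37.

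A second tier of gamma M genes lay between 1 and 1.8 on most arrays. The gene crygmx had 1.77, 1.53 and 1.49, with a mean of 1.60 ± 0.15 (limma adjusted p = 5.26e-05), and crygmxl1 had 1.78, 1.46 and 1.43, with a mean of 1.56 ± 0.20 (limma adjusted p = 9.79e-05). Both were highest on replicate 1. The gene crygm2b had 1.37, 1.34 and 1.55, with a mean of 1.42 ± 0.11 (limma adjusted p = 5.26e-05), and crygm2d13 had 1.34, 1.30 and 1.55, with a mean of 1.40 ± 0.13 (limma adjusted p = 6.49e-05). These last 2 followed each other across the arrays, both highest on replicate 3. The third crygmx-type gene, crygmxl2, averaged 1.18 ± 0.23.

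Lower ratios were found for crygm2e (mean 0.79 ± 0.10), crygm3 (0.75 ± 0.16), crygm2f (0.62 ± 0.13) and crygm5 (0.60 ± 0.13), all of which passed with limma adjusted p between 0.00039 and 0.00144. The gene crygm2a had 0.25, 0.10 and 0.41, a mean of 0.25 ± 0.16 that lay just past the threshold (limma adjusted p = 0.0467); leaving out any 1 of the 3 arrays ended this call, with adjusted p from 0.0817 to 0.107. Near 0 were crygm4, with 0.03, 0.04 and -0.05, and crygm6, with -0.03, -0.10 and 0.19 (limma adjusted p = 0.937 and 0.888). The third gene that did not pass, crygm7, averaged -0.14 ± 0.08 and was below 0 on every array (limma adjusted p = 0.134). Gamma M genes measured under the same name stem thus differed widely: crygm2b exceeded crygm2a by 1.17 ± 0.06, and crygm2d18 exceeded crygm2d13 by 0.85 ± 0.05, each in 3 of 3 arrays.

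Most gamma M genes sit side by side on chromosome 9. In the GRCz12tu gene order, a run of 31 crystallin genes from crygm2c to crygs3 has no other protein-coding gene in it, and 12 of the 31 were measured. All 10 gamma M genes measured in this run passed on the positive side, where 9.95% of all genes passed. They include crygm2a, whose call is the weak one named above. Many gamma M genes are near copies, so these 10 are not replicates of each other. Of the 5 gamma M genes outside the run, 2 passed: crygmx and crygmxl2, which neighbour each other on chromosome 12. The genes crygm6 and crygm7 lie on chromosome 9 outside the run, and crygm4 lies on chromosome 6. The 2 gamma S genes at the end of the run, crygs4 and crygs3, did not pass.

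Within the run, neighbours did not share 1 ratio. The gene crygm2d11 exceeded its neighbour crygm2d13 by 1.48 ± 0.30, and crygm2d13 exceeded crygm2e, next to it on the other side, by 0.60 ± 0.03. The gene crygm2e in turn exceeded its neighbour crygm2a by 0.54 ± 0.07. Each of these 3 differences was above 0 in 3 of 3 arrays. At the other end of the run, crygm2f and crygm5 differed by 0.03 ± 0.21 (crygm2f minus crygm5), less than the spread of the arrays. Of the 21 crygm2d genes in the gene table, only crygm2d11, crygm2d13 and crygm2d18 have a named probe, each a single one. Probe sequences were not used here, and a probe may take up RNA of near-identical copies, so that 1 ratio may stand for several genes of the run.

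**Figure D2:**
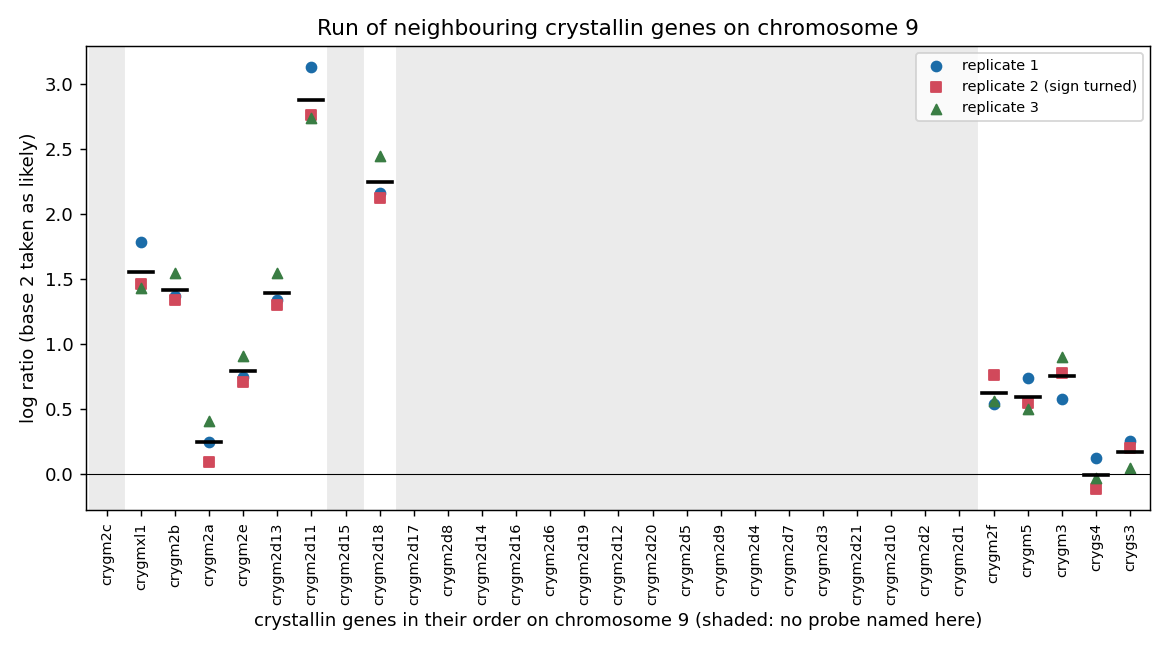
Log ratio on each array (points) and mean (bar) of the crystallin genes of the chromosome 9 run in gene order from left to right, with genes that have no named probe shaded. The 3 measured crygm2d genes lie at 1.40, 2.88 and 2.24, and the gamma S genes at the right end lie near 0.

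The gamma N crystallins, which combine features of beta and gamma crystallin genes, split between their copies. The gene crygn2 had 1.22, 0.99 and 1.14, with a mean of 1.12 ± 0.12, a 2.17-fold difference (limma adjusted p = 0.000125). Its relative crygn1 had 0.11, 0.02 and 0.14, with a mean of 0.09 ± 0.06 (limma adjusted p = 0.306). On every array crygn2 was higher, by 1.03 ± 0.07 on average. The 1 probe of crygn1 lay near 0 and may be without signal.

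The gamma S crystallins, whose mammalian counterpart is made mostly in later-forming fibres, had small ratios. Only crygs1 passed, with 0.40, 0.29 and 0.25 and a mean of 0.31 ± 0.08 (limma adjusted p = 0.00934). The gene crygs3 had 0.26, 0.21 and 0.05, a mean of 0.17 ± 0.11 (limma adjusted p = 0.0974). The genes crygs2 (0.04, 0.10 and 0.04) and crygs4 (0.12, -0.11 and -0.03) had limma adjusted p of 0.475 and 0.963. The highest ratio of a gamma S gene on any array was the 0.40 of crygs1. Without replicate 3, crygs3 had a mean of 0.23 and passed (adjusted p = 0.0198), and without replicate 2, the call of crygs1 was lost at a mean of 0.32 (adjusted p = 0.0834).

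The classes were compared through the mean of their genes on each array. Gamma crystallins averaged 0.84, 0.74 and 0.84 on replicates 1, 2 and 3, beta crystallins 0.55, 0.54 and 0.73, and alpha crystallins 0.41, 0.45 and 0.33. Gamma exceeded beta by 0.20 ± 0.09, gamma exceeded alpha by 0.41 ± 0.11 and beta exceeded alpha by 0.21 ± 0.17, each in 3 of 3 arrays (mean ± SD over 3 arrays). Such SDs, here and below, come from arrays that measured the same genes and leave out the spread among the genes of a class. No p-value is given for these scores, since the members were chosen with earlier results of these data known.

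The order of gamma and beta did not hold with class medians. Over the genes' mean ratios, the median was 0.62 for gamma, 0.71 for beta and 0.09 for alpha crystallins, against 0.00 for all genes. Taken array by array, the difference of medians was -0.17, 0.08 and -0.27 (gamma minus beta), with a mean of -0.12 ± 0.18. The mean of the gamma class, 0.81, lay above its median, and the largest gamma M ratios enter the mean in full. By count, 14 of 21 gamma and 7 of 10 beta crystallins passed on the positive side, against 9.95% of all genes. Alpha was the lowest of the 3 by both summaries, but it holds only 3 genes, of which 1 passed.

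Gamma M and gamma S differed inside the gamma class. Gamma M genes averaged 1.01 ± 0.06 and gamma S genes 0.13 ± 0.07, and the difference was 0.82, 0.82 and 0.99 on replicates 1, 2 and 3. By class medians it was 0.69 ± 0.16, against 0.63 ± 0.20 for beta minus alpha. With gamma M alone in place of all gamma genes, the distance from the beta class was 0.40 ± 0.07, and by medians it was 0.07 ± 0.07.

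**Figure D3:**
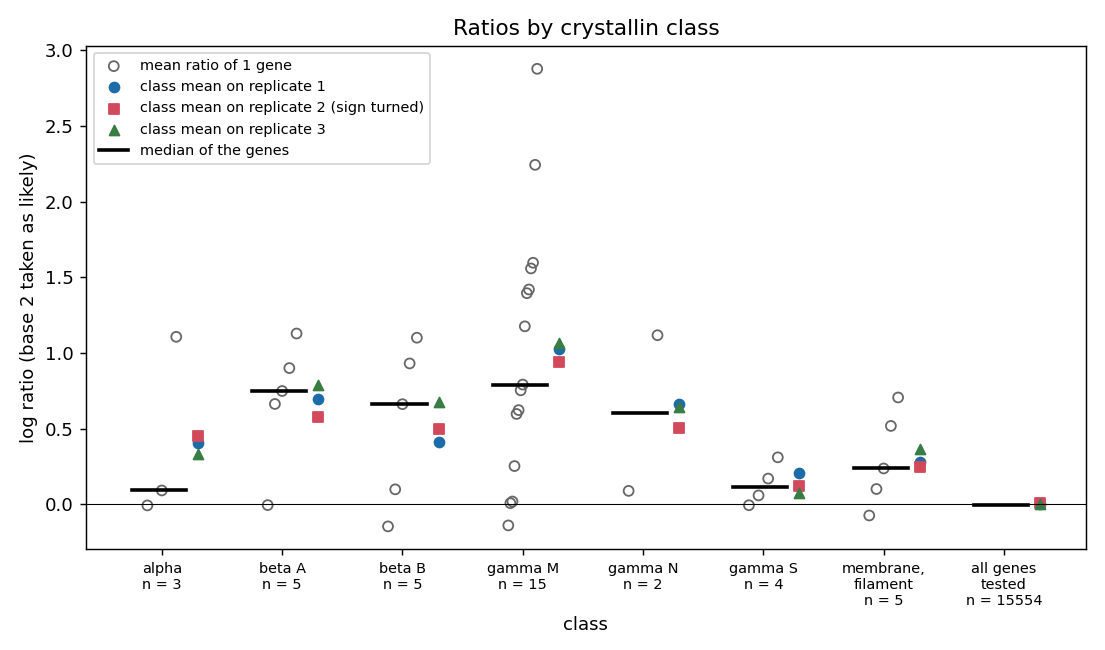
Mean log ratio of each gene (open circles), the median of each class (bar) and the class mean on each array (coloured marks), with all 15554 genes at the right. Gamma M reaches highest, while its median of 0.79 lies close to that of beta A at 0.75.

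The membrane and filament genes had a lower class mean than the beta and the gamma crystallins, although bfsp2 lay above the gamma median. The beaded filament gene bfsp2, which encodes phakinin, an intermediate filament protein of fibre cells, had 0.81, 0.69 and 0.62, with a mean of 0.71 ± 0.10 (limma adjusted p = 0.000566). The fibre membrane gene lim2.4 had 0.61, 0.37 and 0.57, with a mean of 0.52 ± 0.13 (limma adjusted p = 0.0024). Its relative lim2.3 had 0.26, 0.23 and 0.22, with a mean of 0.24 ± 0.02 (limma adjusted p = 0.0173). On every array lim2.4 was the higher of these 2, by 0.28 ± 0.12 on average. Without replicate 1 or without replicate 2, lim2.3 had means of 0.23 and 0.24 and did not pass (adjusted p = 0.0676 and 0.143).

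The water channel genes did not pass. In zebrafish both mip copies are expressed in the lens. The gene mipa had -0.23, -0.22 and 0.23, so that replicate 3 lay opposite to the other arrays (mean -0.07 ± 0.26, limma adjusted p = 0.657). Without replicate 3 its mean was -0.22 and passed on the negative side (adjusted p = 0.0226). The copy mipb had -0.04, 0.15 and 0.20, with a mean of 0.10 ± 0.13 (limma adjusted p = 0.332). As a class, the 5 membrane and filament genes averaged 0.30 ± 0.06, below the gamma class by 0.51 ± 0.04 and below the beta class by 0.31 ± 0.05, each in 3 of 3 arrays.

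Of the 39 genes, 9 had more than 1 probe, and the probes of a gene mostly gave like ratios. The 5 probes of cryba2a had means between 0.85 and 0.97, and the 4 probes of crybb1 between 0.84 and 1.21. All 4 crybb1 probes were highest on replicate 3, with 1.26 to 1.70 there, against 0.53 to 1.05 on replicates 1 and 2. The difference between arrays for crybb1 was therefore shared by its probes. The largest gap between probes of a gene was that of cryaa, at 1.35 and 0.86, both of which passed on their own in a fit over all 43603 probes, where 5.46% of probes passed with a positive ratio. Only for lim2.3 did 1 probe pass (0.30, limma adjusted p = 0.0276) and the other not (0.18, limma adjusted p = 0.112). The other 30 genes rest on 1 probe each.

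**Figure D4:**
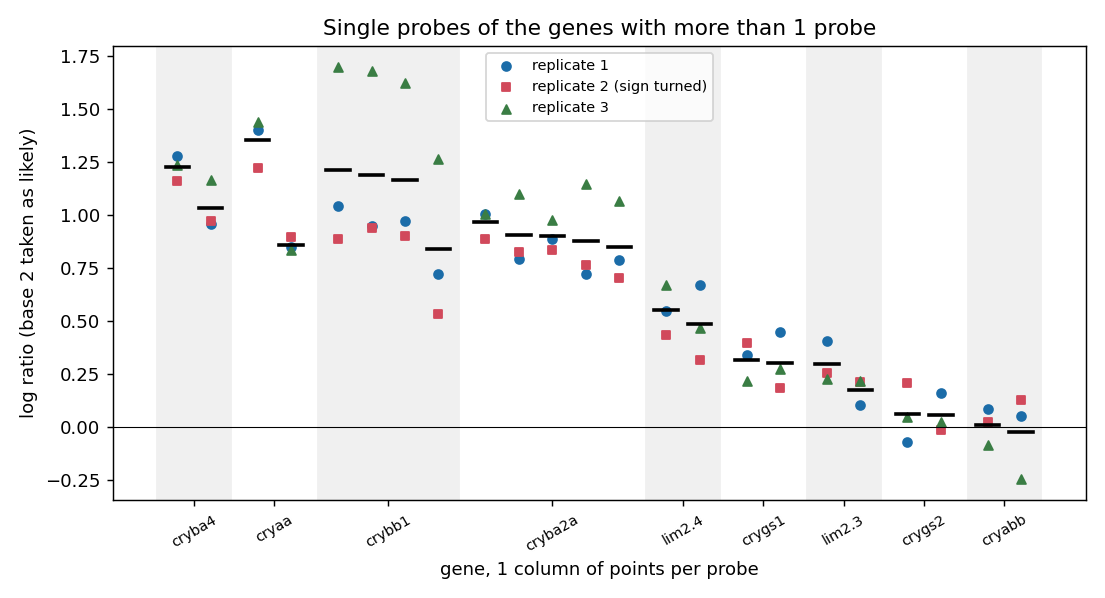
Log ratio of each probe on each array for the 9 genes with more than 1 probe, with the mean of each probe as a bar. The 4 crybb1 probes have replicate 3 above the other arrays, and the 2 probes of cryaa stand at 1.35 and 0.86.

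Across the 39 genes, the ratios of 2 arrays correlated at r = 0.970 (replicates 1 and 2), 0.951 (1 and 3) and 0.955 (2 and 3), as a description over genes that share the untreated pool. Over all 15554 genes the same pairs of arrays had r = 0.820, 0.645 and 0.739. The higher r of the 39 genes does not mean a smaller spread between arrays. The median SD over the arrays was 0.13 for the 39 genes and 0.09 over all genes. Replicate 3 held the highest ratio for 20 genes, replicate 1 for 12 and replicate 2, the dye-swapped array, for 7. On average, a gene deviated from its own mean by 0.05 on replicate 3 and by -0.05 on replicate 2. These offsets lie well under the median ratio of 0.62.

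Other genes of the lens were taken from lists. Of 12 measured transcription factors with roles in lens development, 5 passed, and the median of the 12 was 0.10. All 5 were on the positive side, where 9.95% of all genes passed. They were prox1a (0.86 ± 0.15, limma adjusted p = 0.000469), needed for fibre elongation in mice, tfap2a (0.72 ± 0.12, limma adjusted p = 0.000693), hsf4 (0.58 ± 0.06, limma adjusted p = 0.00085), a heat shock factor of fibre cells, sox1a (0.42 ± 0.06, limma adjusted p = 0.00268), whose mouse counterpart activates gamma crystallin genes, and six3a (0.37 ± 0.07, limma adjusted p = 0.00446). The lens gene foxe3 had 0.01 ± 0.04, pax6a -0.04 ± 0.05 and pax6b -0.18 ± 0.26, and none of these 3 passed. Most of these factors also act outside the lens.

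Of 19 other genes with roles in the lens, 8 passed with a positive and 1 with a negative ratio. The shares over all genes were 9.95% and 9.44%, and the median of the list was 0.07. On the positive side, lgsn, which encodes the fibre protein lengsin, had 0.90, 0.90 and 0.79 (mean 0.86 ± 0.06, limma adjusted p = 0.000192). The nuclease gene dnase1l1l, which acts in the removal of fibre cell nuclei, had 0.71, 0.62 and 0.73 (mean 0.69 ± 0.06, limma adjusted p = 0.000444). The further lim2 gene lim2.5 averaged 0.42 ± 0.09 (limma adjusted p = 0.00352). The Eph receptor gene epha2a, which is also expressed in other epithelia, had -0.77, -0.55 and -0.52 (mean -0.62 ± 0.14, limma adjusted p = 0.00146) and was the gene on the negative side. The lens connexin genes gja8a (0.07 ± 0.08) and gja8b (-0.22 ± 0.35) did not pass. Without replicate 2, 4 of these 19 genes passed on the positive side, as did 3.74% of all genes.

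Other genes with a crystallin name, outside the symbol rule, had a median ratio of 0.01, against 0.62 for the 39 genes. Of 5 measured, 1 passed by limma, with a negative ratio (19.4% of all genes passed on either side). It was crym, which encodes a thyroid hormone binding enzyme, with -0.43, -0.40 and -0.36 (mean -0.40 ± 0.04, limma adjusted p = 0.00269). The genes cryzl1 (0.13 ± 0.09), crybg1b (0.07 ± 0.08), crybg1a (0.01 ± 0.05) and cryl1 (-0.02 ± 0.14) did not pass.

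Whole embryos hold other tissues, and their markers had ratios of their own. Over all genes, 9.95% were called positive and 9.44% negative. Of 22 retina markers, 11 were called positive and 2 negative, with a median of 0.30, and the list averaged 0.66, 0.65 and 0.65 on replicates 1, 2 and 3. The 39 genes of the family averaged 0.66, 0.60 and 0.71, so the 2 sets had like means and different medians. Of 16 skeletal muscle markers, 8 were called positive and 1 negative, with a median of 0.19 and list means of 0.27, 0.23 and 0.17. Of 14 markers of surface epithelium and cornea, 4 were called positive and 2 negative, with a median of 0.07 and list means of 0.04, 0.12 and -0.12. By median and by most of their calls, the retina, skeletal muscle, and surface epithelium and cornea lists all lay on the same side as the crystallins. The surface epithelium and cornea list did so with a median near 0. Its mean on replicate 3 includes evpla, with 0.29, -0.19 and -1.99 on replicates 1, 2 and 3. The most positive retina markers were gnb3a (2.46 ± 0.07, limma adjusted p = 6.8e-06), crx (2.40 ± 0.11, limma adjusted p = 7.29e-06) and vsx1 (2.30 ± 0.03, limma adjusted p = 6.8e-06), which lie between crygm2d18 and crygm2d11. On the negative side of the retina list were rx1 (-0.59 ± 0.12, limma adjusted p = 0.00144) and atoh7 (-0.59 ± 0.32, limma adjusted p = 0.0122). Another 9 retina markers did not pass. Where the markers of each list are expressed in these embryos was not tested. The part of other tissues, of eye size and of developmental stage in the lens ratios was not tested.

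**Figure D5:**
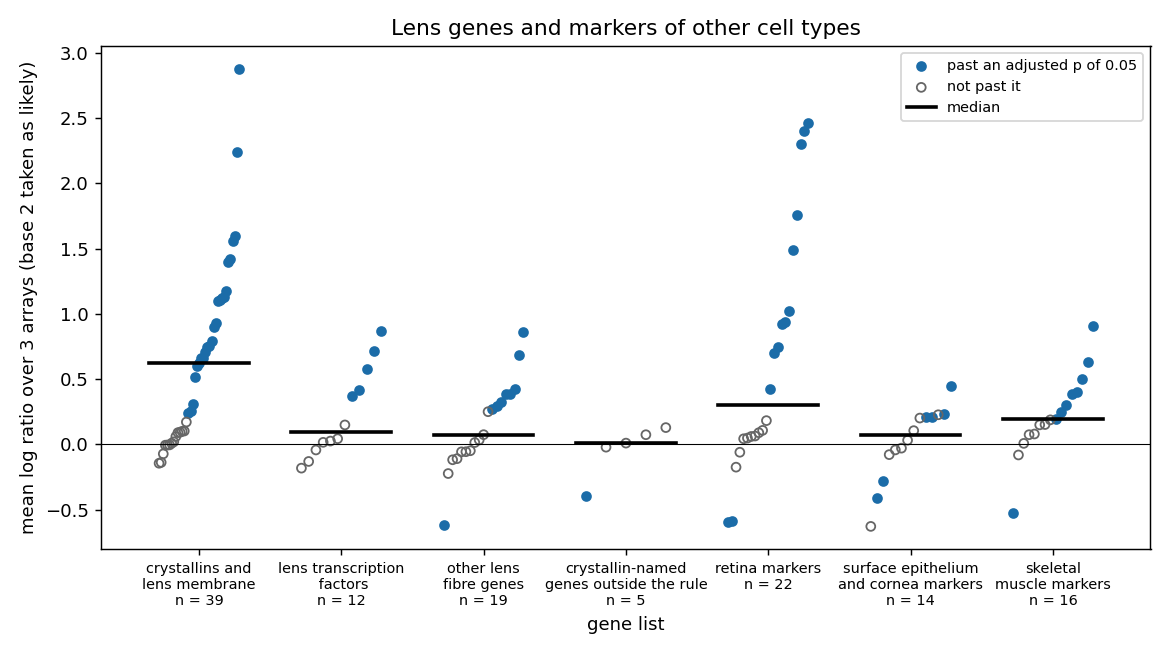
Mean log ratio of each gene in the family of 39 and in 6 lists of other genes, filled where the gene passed an adjusted p of 0.05 by limma, with the median as a bar. The crystallin and membrane genes have the highest median, 0.62, followed by the retina markers at 0.30, whose list means are close to those of the 39 genes.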

How the data were processed

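The authors deposited 1 log2 ratio per probe and array (base 2 taken as likely), made with Partek per the submitters' processing notes. The sources used here do not give its version, the background correction or the normalisation. Medians of the oriented arrays were -0.0037, 0.0028 and -0.0050. Of 43648 probes, 45 controls were left out; 23717 of the rest had 1 gene symbol in the platform annotation, 0 several and 19886 none. Probes of a gene were averaged, giving 15554 genes. All 39 members matched the GRCz12tu table by Entrez identifier, and 0 symbols differed. Mean ratios were tested against 0 with limma 3.58.1 (lmFit, eBayes; R 4.3.3), leaving 2 residual degrees of freedom, and p-values were adjusted over all genes by Benjamini-Hochberg (threshold 0.05). The fit was tested on simulated data. Members, lists and tests were chosen with earlier results of these data known. Genes were named by a rule. In a class of up to 6 all were named, otherwise the 6 largest and 2 smallest ratios with every array. Of each list, up to 4 genes were named by adjusted p. The genes six3a, foxe3, pax6a, pax6b, gja8a, gja8b, rx1 and atoh7 were added after their values were seen. As alternatives, the arrays were centred, scaled or quantile normalised, a dye term, another prior, threshold, probe rule or minimum change was set, or 1 replicate was left out. Plots used matplotlib 3.10.9 in Python 3.11.15.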

Additional observations from a re-analysis of the deposited data

How the results depend on the processing

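The number of genes on the positive side, 25 of 39 against 9.95% of all genes, was 25 with centring, scaling, quantile normalisation, probe medians and a robust prior (9.84% to 10.2% of all genes). It was 23 with the probe of smallest ratio (7.06%) and at an adjusted p of 0.01 (5.01%). It was 26 at 0.10 (13.2%), 22 with a dye term (5.19%) and 22 with a change of at least 0.2 (2.84%). When all probes of a gene had to pass it was 23, but no share over all genes was computed for this setting. Leaving out each replicate gave 22 to 25, with 3.74% to 12.1% of all genes. Lost calls were those of crygm2a, crygs1 and lim2.3, and fits without 1 replicate or with the dye term have 1 residual degree of freedom. Gamma minus beta reversed with class medians (-0.12) and moved to 0.40 with gamma M alone, by the choice of summary and members; without 1 replicate it was 0.15 to 0.24. Gamma minus alpha was 0.36 to 0.47 and beta minus alpha 0.12 to 0.27 without 1 replicate, and beta minus alpha was 0.63 with class medians. Positive calls among the other lens genes, 8 of 19, were 4 without replicate 2 (3.74% of all genes) or with a dye term (5.19%) and 2 with a change of at least 0.2 (2.84%); this check was chosen after seeing the data. The planned comparison without near-identical copies was not run, since no sequences were used here. No paired analysis was possible because each array holds 1 treated replicate against the same pool. Without intensities, the effect of dim probes could not be examined.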
